A study of Mus musculus with 3 samples.

Results

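The nuclei described here are glutamatergic nuclei of the mouse prefrontal cortex that carry *Tshz2*, a zinc finger transcription factor gene, and no UMI of 4 marker genes of the olfactory bulb. They were chosen on measured counts. Nuclei with fewer than 200 genes or with 10% or more of their counts from mitochondrial genes were dropped. A nucleus was then taken when it held at least 2 UMIs (unique molecular identifiers, each standing for 1 captured transcript) of *Tshz2*, at least 1 UMI of *Slc17a7* and none of *Cdhr1*, *Eomes*, *Doc2g*, *Tbx21*, *Gad1*, *Gad2*, *Slc32a1*, *Slc6a13*, *Slc47a1* or *Foxd1*. The first 4 of these, *Cdhr1*, *Eomes*, *Doc2g* and *Tbx21*, are the bulb markers meant below. In all, 319 of 43464 kept nuclei met the rule, and 16999 kept nuclei met it when *Tshz2* was disregarded. They are called *Tshz2* nuclei below, and the genes of the rule are no results.

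The series compared mice that lack neuron navigator 1 (*Nav1*), a cytoskeletal guidance protein of neurons, with wild-type mice by single-nucleus RNA-seq. The B6 library was 1 pool of prefrontal cortex from 5 wild-type C57BL/6J mice (C57BL/6 in the sample labels), and the *Nav1* KO library was 1 pool from 4 homozygous knockouts on the C57BL/6J background, made with CRISPR by a deletion in exon 1. The BTBR library came from the inbred strain BTBR T+ Itpr3tf/J, which the series adds as a separate strain, and the number of its mice is not given in the sources used here. All mice were 6 to 8 weeks old. The paper gives males for the B6 and *Nav1* KO pools. It sorted their nuclei on Hoechst and NeuN staining, to a set mix of NeuN-positive and NeuN-negative nuclei. Since each group was 1 library, differences between groups have no replicate, and the intervals given for them (95%) cover counting error only. The genotype, the strain and the pool cannot be told apart from one another.

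In the cortex, *Tshz2* is used to mark near-projecting neurons, a sparse class of glutamatergic cells in layers 5 and 6 whose axons stay close to the cell body. Such neurons are also known for *Vwc2l*, which codes for a secreted protein with von Willebrand factor C domains, for *Trhr*, the receptor of thyrotropin-releasing hormone, and for *Slc17a8*, the vesicular glutamate transporter VGLUT3. *Tshz2* is not confined to them. Mitral and tufted cells of the olfactory bulb carry it too, and for this reason nuclei with bulb markers were held apart.

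The *Tshz2* nuclei numbered 89 of 14630 in B6 (0.608%, 0.489 to 0.748), 102 of 14778 in BTBR (0.690%, 0.563 to 0.837) and 128 of 14056 in *Nav1* KO (0.911%, 0.760 to 1.08). They held 312343, 382720 and 454971 counts, with medians of 2570, 2661 and 2789 UMIs and of 1428, 1565 and 1447.5 genes per nucleus. No cell barcode was shared between *Tshz2* nuclei of different libraries, and 1 *Tshz2* nucleus of BTBR or *Nav1* KO shared its barcode with a kept nucleus of the other. Among all kept nuclei, 59 barcodes were shared between B6 and BTBR, 66 between B6 and *Nav1* KO and 55 between BTBR and *Nav1* KO. Summed *Tshz2* stood at 973, 1116 and 1015 CPM (a gene's share of all counts of the same nuclei, on the usual CPM scale), which describes the rule. In oligodendrocyte-type nuclei, which should lack it, *Tshz2* was at 19.5, 36.0 and 91.0 CPM, a level that free RNA in the droplets may give.

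Whether the nuclei were near-projecting neurons was examined with genes the rule did not use. All 3 check genes were higher in the *Tshz2* nuclei than in the 16200 glutamatergic nuclei that met the same rule with *Tshz2* at 0 (*Tshz2*-zero nuclei), in every library. *Vwc2l* (chr1:70725715-70885397 of GRCm38, plus strand) stood at 89.6 CPM in B6, 96.7 in BTBR and 68.1 in *Nav1* KO, against 6.57, 3.92 and 3.34 in the *Tshz2*-zero nuclei. Its log2 ratio was 3.96 ± 0.37 (SD, n = 3 libraries, on CPM + 1), and its adjusted p was 1.12e-41 in the quasi-likelihood test of edgeR (Benjamini-Hochberg, library as a block). The ranges of the 2 kinds of nuclei were far apart. *Trhr* (chr15:44196135-44235912, plus strand) stood at 12.8, 15.7 and 35.2 CPM against 1.23, 0.718 and 1.64 (log2 ratio 3.23 ± 0.57, SD, n = 3; edgeR adjusted p = 3.63e-09). *Slc17a8* (chr10:89574020-89621253, minus strand) had 3, 9 and 20 counts in the *Tshz2* nuclei, or 9.60, 23.5 and 44.0 CPM, against 0, 0.979 and 0.438 CPM (log2 ratio 4.00 ± 0.84, SD, n = 3; edgeR adjusted p = 1.52e-15). For these sparse genes the sums rest on few nuclei. UMIs of *Vwc2l* came from 74 *Tshz2* nuclei, those of *Trhr* from 22 and those of *Slc17a8* from 23.

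UMIs of the check genes were seen in a minority of the 319 nuclei. At least 1 UMI of a check gene was seen in 103 *Tshz2* nuclei (32.3%), made up of 26 in B6, 34 in BTBR and 43 in *Nav1* KO, against 6.04% of the nuclei with 1 *Tshz2* UMI and 1.83% of the *Tshz2*-zero nuclei. In nuclei that met the rule but held a bulb marker (bulb-marker nuclei) the share was 11.2%, and in B6 it was 31.8% of these (7 of 22) against 29.2% of the *Tshz2* nuclei. *Vwc2l* was seen in 23.2% of the *Tshz2* nuclei, 1.35% of the *Tshz2*-zero nuclei and 2.27% of the 264 oligodendrocyte-type nuclei, whose median UMIs were 1195, 2229 and 2073.5. After thinning each nucleus to 1000 UMIs, which left out 3, 3 and 2 *Tshz2* nuclei of B6, BTBR and *Nav1* KO, those shares were 7.72%, 0.444% and 0.976%. The order of *Tshz2* nuclei above the others held at equal depth. *Trhr* was seen in 6.90% of the *Tshz2* nuclei against 0.379% of the oligodendrocyte-type nuclei (3.86% and 0 of 205 thinned). *Slc17a8* was seen in 7.21% against 0 of 264, which does not exclude a low share (2.57% and 0 of 205 thinned). A nucleus without a UMI of these genes may still express them at this depth. Of the 18 glutamatergic nuclei that held at least 2 of the 3 check genes, 15 held 2 or more UMIs of *Tshz2*, 2 held 1 and 1 held none. The 15 were 8 nuclei of BTBR and 7 of *Nav1* KO, and the 1 such nucleus of B6 held 1 UMI of *Tshz2*.

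The threshold lay on a slope of *Vwc2l* and *Lypd1*. With 0, 1, 2, 3, 4 and 5 or more UMIs of *Tshz2* there were 16200, 480, 139, 55, 36 and 89 nuclei, and their *Vwc2l*, summed over the libraries, stood at 4.60, 12.8, 40.2, 45.2, 111 and 169 CPM. The nuclei just inside the threshold were thus at 40.2 CPM (24.9 to 61.4) and those just outside at 12.8 CPM (7.82 to 19.8). *Lypd1*, which codes for a lipid-anchored protein that binds nicotinic receptors, followed the same order with 14.9, 17.3, 65.0, 85.3, 120 and 175 CPM. *Trhr* was at 1.22 CPM with no *Tshz2*, 5.76 with 1 UMI, 17.2 with 2, 30.1 with 3, 9.21 with 4 (1 count) and 31.3 with 5 or more, and in B6 it had no count at 4 or more. *Slc17a8* had no count in the nuclei with 3 or 4 UMIs of *Tshz2* and stood at 36.3 CPM with 2 and 40.7 CPM with 5 or more. Median depth differed little between these classes, from 2308 to 3068 UMIs.

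**Figure D1:**
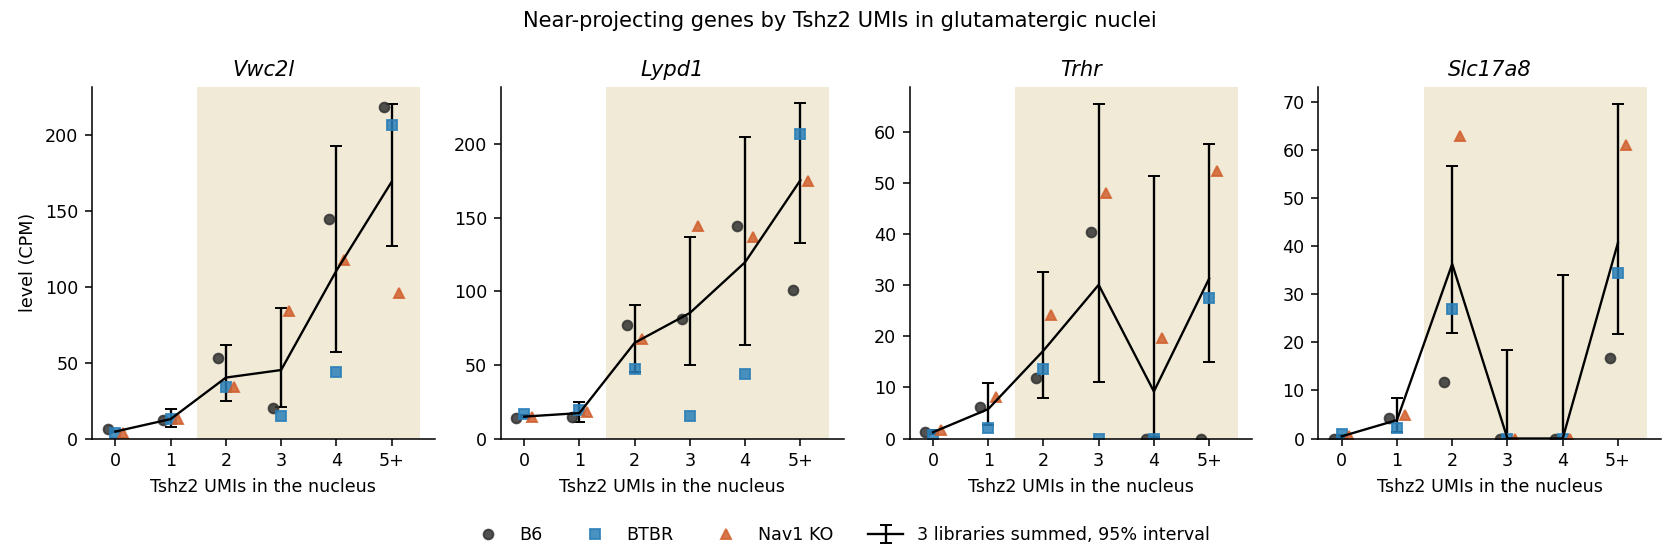
Level of 4 near-projecting genes in CPM (vertical axes) by the number of *Tshz2* UMIs in a glutamatergic nucleus (horizontal axes), as sums over the nuclei of each library (symbols) and over the 3 libraries (line, with exact Poisson 95% intervals); the shaded classes are the *Tshz2* nuclei. *Vwc2l* went from 4.60 CPM at 0 UMIs to 169 CPM at 5 or more, and *Slc17a8* had no count at 3 and 4 UMIs.

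Of the 6 tested genes of the near-projecting list 5 were higher in the *Tshz2* nuclei and none was lower, where 2.63% of the 15309 genes tested were called higher and 3.6% lower. *Lypd1* stood at 89.6 CPM in B6, 102 in BTBR and 116 in *Nav1* KO against 14.2, 16.3 and 14.3 (log2 ratio 2.70 ± 0.21, SD, n = 3), and it was seen in 89 *Tshz2* nuclei. *Rapgef3*, an exchange factor that responds to cyclic AMP, stood at 19.2, 54.9 and 57.1 CPM against 5.10, 15.3 and 6.90. In the oligodendrocyte-type nuclei it stood at 53.7, 58.5 and 19.2 CPM. *Sla2*, the sixth, had 1 count in each library and was not called. The list summed to 224, 295 and 323 CPM in the *Tshz2* nuclei and to 28.1, 38.1 and 28.2 CPM in the *Tshz2*-zero nuclei. In the bulb-marker nuclei it summed to 190, 270 and 218 CPM, with *Rapgef3* giving the most counts in BTBR and *Nav1* KO, and in the oligodendrocyte-type nuclei to 83.0, 80.9 and 38.3 CPM.

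Over all genes, 402 were called higher and 551 lower in the *Tshz2* nuclei by edgeR at an adjusted p under 0.05, and 368 and 481 of them had the same direction in all 3 libraries. With size factors of DESeq2 in the same fit the split was 476 higher and 373 lower, so the balance of the directions depends on the scaling. Without the *Nav1* KO library 176 were called higher and 229 lower, and without B6 262 were called lower. In 47 of the 402 genes called higher, more than 25% of the UMIs in the *Tshz2* nuclei came from 1 nucleus.

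Among the genes with the largest fitted increases were some that were spread over many nuclei. *Mirt1*, a long non-coding RNA gene, stood at 89.6 CPM in B6, 23.5 in BTBR and 112 in *Nav1* KO against 2.99, 0.261 and 1.37 (log2 ratio 4.79 ± 0.69, SD, n = 3; edgeR adjusted p = 2.20e-38), in 64 *Tshz2* nuclei. Its level was lowest in BTBR in both kinds of nuclei. *Myzap*, which codes for a protein of cell junctions known from the heart, stood at 48.0, 54.9 and 46.2 CPM against 0.997, 1.37 and 0.821 (log2 ratio 4.62 ± 0.07, SD, n = 3), in 47 nuclei. The libraries hardly differed in this gene. *Stard5*, a lipid transfer protein gene, stood at 44.8, 31.4 and 37.4 CPM against 1.64, 1.50 and 1.59. *Lcp1*, which codes for an actin-bundling protein, stood at 25.6, 26.1 and 37.4 CPM against 2.41, 1.11 and 0.712. *Kcnip1*, a calcium-binding subunit of A-type potassium channels, *Ecel1*, an endopeptidase gene, and *Mst1r*, a receptor tyrosine kinase gene, had fitted log2 fold changes of 3.22, 3.22 and 3.14. *Ecel1* was seen in 8 *Tshz2* nuclei only.

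A further 5 of the 15 genes with the largest increases are known from blood vessels or their matrix, and each came mainly from 1 nucleus. For *Rgs5*, a pericyte gene, 78.6% of the UMIs in the *Tshz2* nuclei were in 1 nucleus, and for *Flt1*, *Cldn5*, *Slco1a4* and *Hmcn1* the share was 59.6%, 63.6%, 66.7% and 59.1%. This nucleus belonged to BTBR, and it held 44 of the 44 BTBR counts of *Rgs5*, 31 of the 33 of *Flt1* and 71 of the 76 of *Vtn*. All 4 genes of the vascular list (*Cldn5*, *Flt1*, *Rgs5*, *Vtn*) were called higher. The list summed to 22.4 CPM in B6, 460 in BTBR and 207 in *Nav1* KO against 14.5, 23.4 and 27.0 CPM in the *Tshz2*-zero nuclei, and *Vtn* gave the most counts in BTBR and *Nav1* KO. A UMI of the list was seen in 4, 5 and 17 *Tshz2* nuclei. When nuclei with a vascular UMI or at least 3 UMIs of the glial and fibroblast lists were left out on both sides, an alternative chosen after the values had been seen, 5 genes of the near-projecting list were called higher, and the counts were 303 higher and 379 lower, of which 270 and 337 were among the first calls. The vascular genes have no count on either side there, so that alternative cannot call them.

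Genes of other cell types varied between the libraries. The astrocyte list summed to 102, 73.2 and 209 CPM in the *Tshz2* nuclei of B6, BTBR and *Nav1* KO against 41.1, 74.8 and 71.2, with *Slc1a3* giving the most counts, and 2 of its 3 genes (*Aqp4*, *Slc1a3*) were higher. The oligodendrocyte list summed to 381, 144 and 297 CPM against 209, 141 and 187. For precursors 1 of 3 genes was higher (*Cspg4*). Of the microglia (5 genes), meningeal fibroblast (3) and ensheathing glia (3) lists no gene was called, of the interneuron list 1 of 7 was lower (*Lamp5*), and of the striatal list 1 of 8 was lower (*Pde10a*). The list of 7 bulb genes that the rule did not use (*Lhx1*, *Lhx5*, *Nmb*, *Barhl2*, *Ms4a15*, *Slc17a6*, *Reln*) summed to 60.8, 81.0 and 81.3 CPM in the *Tshz2* nuclei against 30.1, 32.4 and 28.8. UMIs of it were seen in 16, 16 and 26 *Tshz2* nuclei (18.2% of the 319), with *Slc17a6* giving the most counts in B6 and *Nav1* KO and *Reln* in BTBR, and 1 of its 4 tested genes was higher (*Slc17a6*). *Lhx1*, *Lhx5*, *Barhl2* and *Ms4a15* were at 0 in the *Tshz2* nuclei of B6 and BTBR, and *Lhx5* in those of *Nav1* KO. Nuclei with at least 2 UMIs of such other types made up 64.0%, 65.7% and 58.6% of the *Tshz2* nuclei and 66.2%, 69.1% and 71.9% of the *Tshz2*-zero nuclei. Doublets were not removed, and the part of other cells in these values was not tested.

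**Figure D2:**
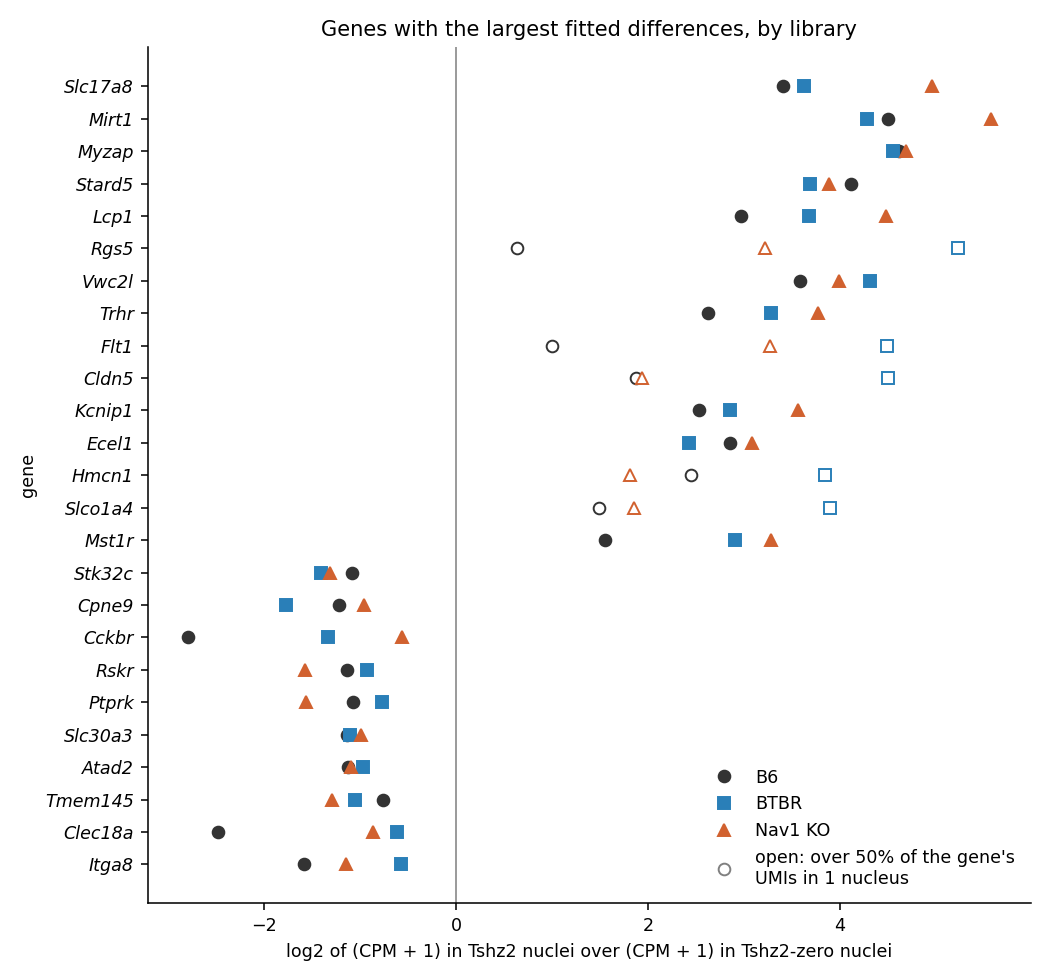
Log2 ratio of the level in *Tshz2* nuclei over that in *Tshz2*-zero nuclei (horizontal axis, CPM with 1 added to both sides) in each library for the 15 genes with the largest fitted increases and the 10 with the largest fitted decreases (vertical axis); open symbols mark genes with over 50% of their UMIs in 1 *Tshz2* nucleus. *Myzap* lay within 4.62 ± 0.07 in the 3 libraries, while *Rgs5*, *Flt1*, *Cldn5*, *Hmcn1* and *Slco1a4* were highest in BTBR.

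Genes of the cortical layers came next. Of 26 transcription factors tied to cortical layers, 5 were higher (*Bcl11b*, *Etv1*, *Fezf2*, *Lmo3*, *Tle4*) and 3 lower (*Cux2*, *Lmo4*, *Rorb*), and the median log2 fold change of the 26 was -0.04, where that of all genes was -0.06. *Etv1*, which codes for a factor of layer 5 neurons, stood at 279 CPM in B6, 272 in BTBR and 292 in *Nav1* KO against 63.7, 65.5 and 64.3 (log2 ratio 2.11 ± 0.07, SD, n = 3; edgeR adjusted p = 1.93e-61). It was seen in 161 *Tshz2* nuclei, 50.5% of them, against 13.2% of the *Tshz2*-zero nuclei and 17.4% of the oligodendrocyte-type nuclei (27.3%, 5.52% and 8.29% thinned). Its level showed almost no spread between the libraries. *Fezf2*, which specifies subcerebral projection neurons, stood at 57.6, 88.8 and 98.9 CPM against 23.1, 26.3 and 25.3 (log2 ratio 1.64 ± 0.33, SD, n = 3). *Tle4*, a corepressor of layer 6 neurons, stood at 368, 321 and 332 CPM against 155, 132 and 125. *Bcl11b*, which codes for CTIP2 of layer 5 and striatal neurons, stood at 128, 193 and 110 CPM against 74.0, 85.2 and 59.9. In the other direction, *Cux2*, of the upper layers, stood at 83.2, 73.2 and 72.5 CPM against 130, 112 and 120.

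Of the layer 6 corticothalamic list 3 of 6 genes were higher (*Col12a1*, *Hs3st4*, *Tle4*), and the list summed to 656, 557 and 631 CPM against 307, 242 and 246, and to 317, 481 and 354 CPM in the oligodendrocyte-type nuclei. Of the layer 6b list 1 of 3 was higher (*Ccn2*), and of the layer 5 extratelencephalic list 1 of 4 (*Bcl11b*). All 3 genes of the layer 2/3 list (*Cux2*, *Otof*, *Rasgrf2*) were lower, with sums of 154, 159 and 136 CPM against 243, 213 and 237, and so were 1 of 2 genes of the middle layer list (*Rorb*) and 1 of 2 of the layer 6 intratelencephalic list (*Oprk1*). The call of *Rorb* was lost with DESeq2 size factors and without the nuclei with vascular or glial UMIs, and that of *Oprk1* in the latter. *Rorb* was not lower in each library, at 157 CPM in B6 against 143 CPM. The claustrum list had no called gene of 2.

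Genes of transmitter release and of receptors were called in both directions. The shares over all genes tested, 2.63% higher and 3.6% lower, are the background of each family count against the *Tshz2*-zero nuclei. Both vesicular glutamate transporters that the rule did not use were higher. *Slc17a6*, which codes for VGLUT2 and is known mainly from subcortical glutamatergic neurons and, as one of the 7 bulb genes above, from mitral and tufted cells, stood at 25.6, 23.5 and 50.6 CPM against 3.46, 5.09 and 4.76 (log2 ratio 2.58 ± 0.58, SD, n = 3; edgeR adjusted p = 3.55e-10). Of 7 genes of the thyrotropin-releasing hormone pathway, *Trhr*, *Trh* and *Trhde* were higher and *Pcsk2* was lower. *Trh*, the hormone precursor, stood at 16.0, 10.5 and 26.4 CPM against 0.587, 4.83 and 5.64 (edgeR adjusted p = 0.0011), in 18 nuclei. *Trhde*, the enzyme that degrades the hormone, had a fitted log2 fold change of 0.41, and *Pcsk2*, a prohormone convertase, of -0.39. The receptor and the hormone precursor thus stood higher in the same sums, which does not say that single nuclei held both.

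Of 15 subunits of ionotropic glutamate receptors 2 were higher (13.3%) and 7 lower (46.7%), or 2 and 4 with DESeq2 size factors, where the calls of *Grik5*, *Grin1* and *Grin2a* were lost. The kainate receptor gene *Grik1* stood at 106, 91.5 and 54.9 CPM against 7.98, 11.2 and 8.05 (log2 ratio 3.04 ± 0.48, SD, n = 3), and *Grik3* had a fitted log2 fold change of 0.59. The AMPA receptor gene *Gria3* stood at 724, 878 and 633 CPM against 1089, 1384 and 995 (log2 ratio -0.63 ± 0.04, SD, n = 3), lower in each library. *Gria1*, *Gria2*, *Grin1*, *Grin2a*, *Grin2b* and *Grik5* were called with fitted log2 fold changes from -0.57 to -0.25. On the plain CPM scale *Gria2* had a log2 ratio of -0.07 ± 0.06 (SD, n = 3), and *Grin2a* was not lower in every library.

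Of the serotonin receptor genes 9.09% were called higher, and of the acetylcholine receptor genes 25% were called higher and 12.5% lower. *Htr2c*, the serotonin 2C receptor, was the 1 called gene of 11 and stood at 89.6, 99.3 and 114 CPM against 20.4, 32.9 and 13.5 (log2 ratio 2.21 ± 0.72, SD, n = 3). Of 8 acetylcholine receptor genes, *Chrm2* and *Chrna5* were higher (fitted log2 fold changes 1.81 and 2.67) and *Chrm3* was lower (-1.09). *Chrna5* was seen in 10 *Tshz2* nuclei. Of 22 peptide receptor genes only *Hcrtr2*, an orexin receptor, was higher (1.74), while *Cckbr*, *Crhr1*, *Npy1r*, *Oprk1* and *Vipr1* were lower (22.7%), of which *Crhr1* and *Oprk1* lost their calls without the nuclei with vascular or glial UMIs. The cholecystokinin receptor gene *Cckbr* stood at 6.40, 20.9 and 35.2 CPM against 50.5, 54.2 and 52.4, so that the libraries of the *Tshz2* nuclei differed more than those of the other side. Of 12 peptide genes *Grp* was higher (1.80) and *Cck* was lower (-0.72). No gene was called among 3 dopamine receptors, 6 adrenergic receptors and 4 HCN channels, and 1 of 7 metabotropic glutamate receptors (*Grm8*) was called higher, a call lost without the nuclei with vascular or glial UMIs. Of 12 GABA-A receptor genes 1 was higher (*Gabrg3*) and 2 were lower (*Gabra2*, *Gabrb2*), and the call of *Gabrb2* was lost without those nuclei and with DESeq2 size factors.

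Among ion channels, 6 potassium channel genes of 74 were higher (8.11%) and 9 lower (12.2%), or 7 and 6 with DESeq2 size factors. Of 22 calcium channel genes 2 were higher (9.09%) and 7 lower (31.8%), or 2 and 4 with those factors and 2 and 3 without the nuclei with vascular or glial UMIs. *Kcnk2*, a two-pore potassium channel, stood at 407, 324 and 325 CPM against 167, 177 and 171 (log2 ratio 1.02 ± 0.22, SD, n = 3). *Cacna2d2*, an auxiliary calcium channel subunit, stood at 76.8, 70.5 and 103 CPM against 30.9, 27.9 and 21.6. Of 11 sodium channel genes *Scn2b* was higher and *Scn8a* lower, and the call of *Scn8a* was lost under both alternatives.

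Genes of adhesion and axon guidance were likewise called in both directions. The neurexophilins *Nxph1* and *Nxph3*, secreted ligands of neurexins, were higher among 14 such genes and partners, while *Nrxn3*, *Nlgn1* and *Lrrtm4* were lower (14.3% and 21.4%). *Nxph1* stood at 89.6 CPM in B6, 75.8 in BTBR and 92.3 in *Nav1* KO against 9.09, 11.7 and 8.38 (log2 ratio 3.03 ± 0.38, SD, n = 3), in 70 nuclei. *Nxph3* stood at 64.0, 57.5 and 50.6 CPM against 7.27, 7.64 and 6.40 (log2 ratio 2.84 ± 0.11, SD, n = 3). Both were about as high in each library. Of 30 semaphorin and plexin genes 4 were higher (*Sema4g*, *Sema5a*, *Sema5b*, *Sema6a*) and 1 lower (*Sema3a*), or 13.3% and 3.33%. Of 15 genes of Slit, Robo, netrin and their receptors 3 were higher (*Dcc*, *Slit1*, *Unc5b*) and 4 lower (*Robo3*, *Slit2*, *Slit3*, *Unc5c*), or 20% and 26.7%. Of 19 ephrin and ephrin receptor genes *Efnb3* was higher and *Efnb2* and *Epha4* were lower (5.26% and 10.5%). Of 81 cadherins and protocadherins 2 were higher (*Cdh18*, *Pcdh17*) and 4 lower (*Cdh7*, *Cdh10*, *Cdh12*, *Pcdh15*), and these shares of 2.47% and 4.94% lay near those of all genes. The calls of *Nlgn1*, *Sema3a*, *Slit2* and *Efnb2* were lost with DESeq2 size factors, and those of *Nlgn1*, *Sema3a*, *Sema5a*, *Unc5b*, *Efnb2* and *Cdh12* without the nuclei with vascular or glial UMIs. In the list of BMP antagonists and genes with von Willebrand factor C domains, which holds *Vwc2l*, *Fstl5* was higher as well and *Chrd* and *Fstl4* were lower, and none of these 3 was called without those nuclei.

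The 10 genes with the largest fitted decreases had smaller changes, with log2 fold changes from -1.49 to -1.20. *Stk32c*, a kinase gene, stood at 22.4, 18.3 and 17.6 CPM against 48.5, 50.3 and 45.2. *Slc30a3*, which loads zinc into synaptic vesicles, stood at 64.0, 99.3 and 83.5 CPM against 142, 215 and 166 (log2 ratio -1.08 ± 0.08, SD, n = 3). The rest were *Cpne9*, *Cckbr*, *Rskr*, *Ptprk*, *Atad2*, *Tmem145*, *Clec18a* and *Itga8*. The study names 12 genes for neurons, some picked on its B6 and *Nav1* KO libraries and others, such as *Rab3a* and *Cck*, known from earlier work. Of these *Etv1* was higher and *Camk2a*, *Cck*, *Gria3*, *Grin2a*, *Grin2b*, *Ppp3ca* and *Prkcb* were lower. *Camk2a*, the kinase subunit of excitatory synapses, stood at 346, 342 and 306 CPM against 551, 493 and 474 (log2 ratio -0.61 ± 0.08, SD, n = 3).

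The *Tshz2* nuclei were not uniform. Clustering without the rule genes (Leiden, 1000 variable genes, 15 principal components) gave 4 groups, described here without tests since their genes defined them. Group 1 held 112 nuclei (35.1%), with 35 of B6, 26 of BTBR and 51 of *Nav1* KO, and was led by *Trhr*, *Myzap*, *Grp*, *Olfm3*, *Kcnip1*, *Lcp1*, *Nxph3*, *Tpbg*, *Tmem70* and *Mirt1*. It is called near-projecting-like after its near-projecting list, which summed to 605 CPM (515 to 707) against 296, 132 and 213 in groups 2 to 4. Genes of this list other than *Tshz2* were not kept out of the clustering, so the sum describes the group and does not test the name. The layer 6 corticothalamic list was also highest in group 1, at 1130 CPM against 743, 290 and 518 in groups 2 to 4. In this group *Vwc2l* stood at 164 CPM and was seen in 32.1% of the nuclei, and *Lypd1* stood at 232 CPM and was seen in 41.1%. *Etv1* stood at 575 CPM, *Fezf2* at 183 and *Tle4* at 605, all above groups 2 to 4, and *Cux2* at 19.0 was below them. Its median depth of 2045.5 UMIs was the lowest of the 4 groups, and its mean of 4.59 *Tshz2* UMIs per nucleus was the highest.

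The near-projecting list was lower in the other groups, although *Rapgef3* was highest in group 2, at 106 CPM against 72.3 in group 1. Group 2 held 36 nuclei and was led by astrocyte and oligodendrocyte genes such as *Aqp4*, *Gja1* and *Mog*, with 956 and 1548 CPM of the 2 lists. Group 3 held 85 nuclei, 21 of B6, 41 of BTBR and 23 of *Nav1* KO, and was led by *Ntng1*, which codes for netrin-G1, with *Erbb4*, *Ndnf*, *Vcan*, *Lhfpl3* and *Zfp536* also among its 10 leading genes. Its list of oligodendrocyte precursors, which holds *Vcan*, stood at 118 CPM, in 18 nuclei, against 7.61, 15.2 and 15.0 CPM in groups 1, 2 and 4. It had no count of *Trhr*, which allows up to 10.4 CPM by the exact interval, and *Vwc2l* stood at 36.6 CPM. Group 4 held 86 nuclei, with 77.5 CPM of *Vwc2l*. Its vascular list stood at 640 CPM, but UMIs of the list were seen in 10 of its nuclei, 167 of the 256 counts came from the BTBR nucleus described above and 55 from 1 nucleus of *Nav1* KO. Without these 2 nuclei the list stood at 87.5 CPM, against 91.0 CPM in group 2. Groups 2, 3 and 4 were given no name. With a resolution of 1 there were 8 groups and the one with the highest *Vwc2l* held 25.4% of the nuclei, and with a resolution of 0.3 there were 3 and it held 53.6%, so the size of the near-projecting-like group is a choice of the setting.

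**Figure D3:**
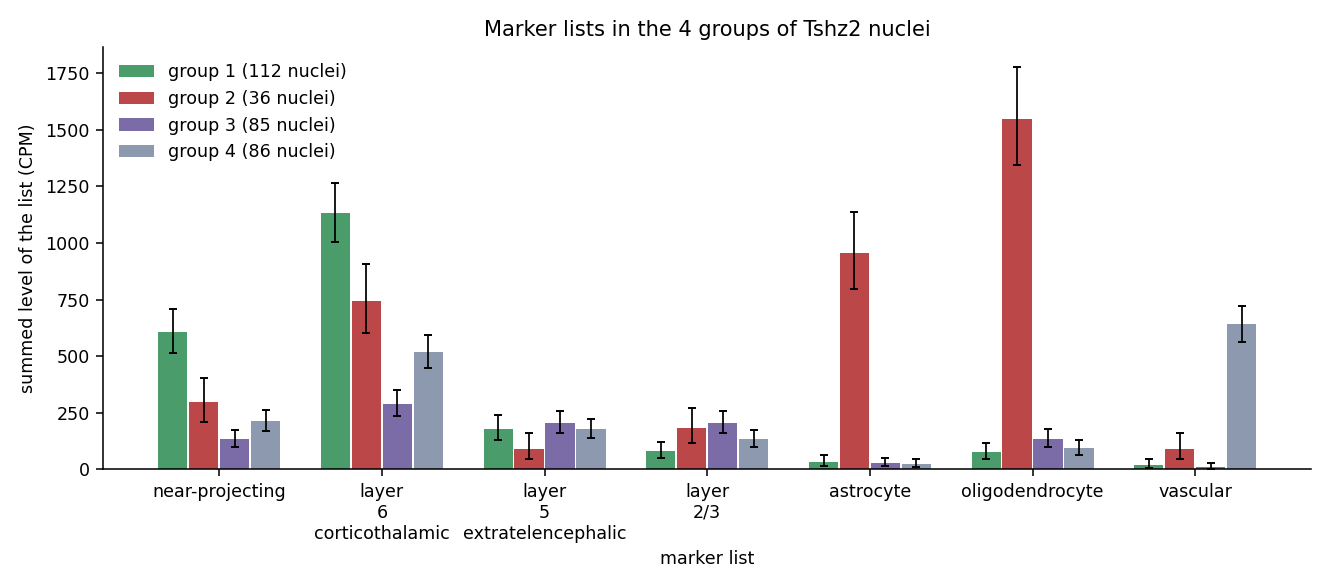
Summed level of 7 marker lists in CPM (vertical axis, bars with exact Poisson 95% intervals) in the 4 groups of *Tshz2* nuclei (colours). Group 1 was highest in the near-projecting and layer 6 corticothalamic lists, group 2 in the astrocyte and oligodendrocyte lists (956 and 1548 CPM) and group 4 in the vascular list (640 CPM, or 87.5 CPM without the 2 nuclei that gave most of its counts).

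The *Tshz2* nuclei were next compared with the bulb-marker nuclei, of which there were 22 in B6, 145 in BTBR and 199 in *Nav1* KO. The question was how far the 2 kinds of *Tshz2* nuclei share genes. Of 7699 genes tested, 351 were higher (4.56%) and 442 lower (5.74%) in the nuclei without bulb markers. The counts were 161 and 244 without BTBR and 50 and 141 without *Nav1* KO. *Lypd1* stood at 89.6, 102 and 116 CPM against 16.5, 28.0 and 23.5 (log2 ratio 2.15 ± 0.29, SD, n = 3; edgeR adjusted p = 5.96e-12). *Vwc2l* was also called higher, but not in each library. It stood at 89.6 CPM in B6 against 107 CPM in the 22 bulb-marker nuclei, and at 96.7 against 24.7 CPM in BTBR and 68.1 against 17.4 CPM in *Nav1* KO. *Rapgef3* was lower, at 19.2, 54.9 and 57.1 CPM against 41.3, 206 and 171, so 2 of the 3 near-projecting genes tested were higher and 1 was lower. *Slc17a6* stood at 25.6, 23.5 and 50.6 CPM against 24.8, 31.3 and 30.7 and was not called.

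The shares over all genes tested, 4.56% higher and 5.74% lower, are the background of each family count against the bulb-marker nuclei. Of 24 transcription factors tied to cortical layers, 13 were higher than in the bulb-marker nuclei and 4 lower (12 and 4 with DESeq2 size factors), with a median log2 fold change of 0.64 where that of all genes was 0.03. *Etv1* stood at 279, 272 and 292 CPM against 99.2, 117 and 62.4, and *Fezf2* at 57.6, 88.8 and 98.9 CPM against 33.1, 59.4 and 22.5. *Cux1*, *Cux2*, *Pou3f1* and *Pou3f2* were the lower ones. Of 14 ionotropic glutamate receptor genes 6 were higher (*Gria3*, *Grik2*, *Grik3*, *Grik4*, *Grin2a*, *Grin2b*) and *Grin2c* was lower. Thus *Gria3* and *Grin2b*, called lower against the *Tshz2*-zero nuclei, were called higher against the bulb-marker nuclei, with the sums of the *Tshz2* nuclei shared by both comparisons. Among the 8 genes with the largest increases were *Myzap*, *Mirt1*, *Tpbg* and *Arhgef26*, with fitted log2 fold changes of 2.27, 2.18, 2.25 and 2.54, and the vascular genes *Flt1*, *Rgs5* and *Vtn*, whose UMIs came mainly from single nuclei as above.

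The genes with the largest decreases were near or at 0 in the *Tshz2* nuclei. *Otop2*, a proton channel gene, had no count in the *Tshz2* nuclei and 1, 40 and 71 counts in the bulb-marker nuclei, a ratio of at most 0.0496 by the exact interval. *Cdh23* and *Ush1g*, both known from hair cells, had no count either, with ratios of at most 0.118 and 0.113. *Ms4a15*, which was on the list of bulb genes outside the rule, had 4 counts against 265, a ratio of 0.0224 (0.00605 to 0.0580). *Rab37* had 2 counts against 220, *Spp1* 2 against 112, and the olfactory receptor genes *Olfr112* and *Olfr114* had 2 against 98 and 1 against 67. Both olfactory receptor genes had at most 2 counts in BTBR on the bulb side. *Reln*, a secreted glycoprotein gene, stood at 19.2, 49.6 and 11.0 CPM against 298, 376 and 478 (log2 ratio -4.03 ± 1.22, SD, n = 3). The 7 bulb genes outside the rule summed to 60.8, 81.0 and 81.3 CPM against 388, 582 and 747, and 3 of the 4 tested were lower (*Ms4a15*, *Nmb*, *Reln*). *Nmb* was not lower in each library, with 5 counts in the *Tshz2* nuclei of B6 and none in the bulb-marker nuclei there. *Lhx1*, *Lhx5* and *Barhl2* had no count in the bulb-marker nuclei of B6 either, and *Lhx5* none in those of *Nav1* KO. Of 22 semaphorin and plexin genes 6 were lower (27.3%, against 5.74% of all genes tested) and none higher, with *Sema3a* at 9.60, 13.1 and 2.20 CPM against 82.6, 84.1 and 135.

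Nuclei with at least 2 UMIs each of *Tle4* and *Hs3st4* and no *Tshz2* (layer 6 type nuclei) served as the deep-layer comparison. There were 14 in B6, 9 in BTBR and 15 in *Nav1* KO, so this comparison has little depth. Of 4553 genes tested, 73 were higher (1.6%) and 44 lower (0.966%) in the *Tshz2* nuclei. *Etv1* had 324 counts in the *Tshz2* nuclei and 1 in the layer 6 type nuclei, a ratio of 51.6 (9.20 to 2045). *Vwc2l* stood at 89.6, 96.7 and 68.1 CPM against 0, 0 and 11.5, and *Lypd1* at 89.6, 102 and 116 CPM against 20.4, 42.1 and 11.5 (edgeR adjusted p = 0.00975). The 3 near-projecting genes tested (*Lypd1*, *Rapgef3*, *Vwc2l*) were higher. Genes with no or few counts in the layer 6 type nuclei, such as *Rapgef3* and *Vwc2l*, entered the test through the *Tshz2* nuclei. They could hardly be called lower, so their calls add little. *Ptprz1*, *Nxph1*, *Grik1*, *Mirt1*, *Zfhx4* and *Rapgef3* had no count in the layer 6 type nuclei and were at least 6.00-fold, 5.26-fold, 4.94-fold, 4.67-fold, 3.88-fold and 2.81-fold higher. Among the genes with the largest decreases, *Foxp2*, a transcription factor gene of layer 6, stood at 57.6, 26.1 and 50.6 CPM against 143, 379 and 173 (log2 ratio -2.29 ± 1.34, SD, n = 3). *Zfpm2*, a cofactor of GATA factors known from corticothalamic neurons, stood at 48.0, 39.2 and 35.2 CPM against 224, 126 and 265 (log2 ratio -2.25 ± 0.61, SD, n = 3). *Ighm*, *Lrrtm2*, *Tom1l2*, *Ipcef1*, *Garnl3* and *Vxn* were the others. Without the *Nav1* KO library only 2 genes were called higher and none lower by edgeR, although 332 genes had an unadjusted p under 0.05.

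Between the libraries, the share of *Tshz2* nuclei was 1.50 times as high in *Nav1* KO as in B6 (1.13 to 1.98) and 1.13 times in BTBR (0.845 to 1.53). As a share of the glutamatergic nuclei the values were 1.39%, 1.94% and 2.38% for B6, BTBR and *Nav1* KO. The ratios to B6 were then 1.71 (1.29 to 2.27) in *Nav1* KO and 1.39 (1.04 to 1.87) in BTBR. The BTBR interval includes no difference on the first scale. So did the *Nav1* KO interval in 2 alternatives, with a ratio of 1.34 (0.976 to 1.84) without the nuclei with vascular or glial UMIs and of 1.18 (0.994 to 1.41) at a threshold of 1 *Tshz2* UMI. The bulb-marker nuclei differed far more. They made up 0.150%, 0.981% and 1.42% of the kept nuclei, 9.41 times as many in *Nav1* KO (6.05 to 15.4) and 6.52 times in BTBR (4.15 to 10.7) as in B6. The 2 kinds of nuclei pooled, which is what the rule selects without its bulb markers, gave shares of 0.759%, 1.67% and 2.33%, with a *Nav1* KO over B6 ratio of 3.07. When nuclei under 1000 UMIs were left out, the shares of *Tshz2* nuclei without bulb markers were 0.703%, 0.781% and 0.984%, in the same order. With 1 dissection pool per group, genotype, strain and the tissue dissected cannot be told apart.

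*Nav1* itself (chr1:135434580-135607295, minus strand) was counted in all libraries. The deletion lies in exon 1 and the library preparation reads the 3′ ends of transcripts, so these counts do not check the knockout. In the *Tshz2* nuclei *Nav1* stood at 346 CPM in B6 (284 to 417), 206 in BTBR (163 to 257) and 237 in *Nav1* KO (195 to 287), from 108, 79 and 108 counts. The *Nav1* KO over B6 ratio was 0.687 (0.521 to 0.905) and the BTBR over B6 ratio was 0.597 (0.441 to 0.805). The first interval included 1 in 3 alternatives, with ratios of 0.907 (0.535 to 1.57) without nuclei holding at least 2 UMIs of other cell types, 0.755 (0.553 to 1.03) without those with vascular or glial UMIs and 0.659 (0.378 to 1.15) thinned. For BTBR it did so without nuclei of other cell types and thinned, at 0.609 (0.307 to 1.18) and 0.629 (0.341 to 1.14). With the bulb-marker nuclei included the *Nav1* KO over B6 ratio reversed to 1.52 (1.30 to 1.79). The order of the libraries was that of the *Tshz2*-zero nuclei, with 336, 133 and 220 CPM, and not that of the bulb-marker nuclei, with 636, 287 and 843 CPM. *Nav1* was lower in the *Tshz2* nuclei than in the bulb-marker nuclei (log2 ratio -1.06 ± 0.69, SD, n = 3), was higher than in the layer 6 type nuclei (1.29 ± 0.40), and was not called against the *Tshz2*-zero nuclei. Its paralogs *Nav2* and *Nav3* stood at 541, 525 and 407 CPM and at 528, 491 and 481 CPM in the *Tshz2* nuclei of B6, BTBR and *Nav1* KO.

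**Figure D4:**
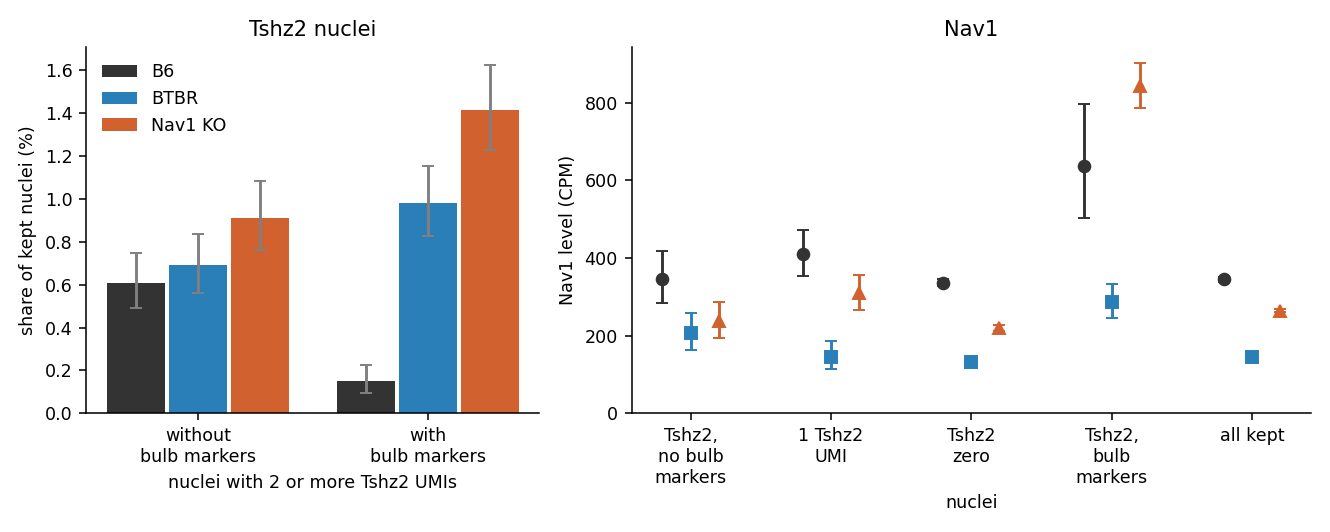
Left, share of kept nuclei in percent (vertical axis, bars with exact Clopper-Pearson 95% intervals) that held 2 or more *Tshz2* UMIs, without and with bulb markers. Right, *Nav1* level in CPM (vertical axis, points with exact Poisson 95% intervals) in 5 kinds of nuclei; in the *Tshz2* nuclei *Nav1* was highest in B6 (346 CPM), and in the bulb-marker nuclei it was highest in *Nav1* KO (843 CPM).

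For single genes, ratios between libraries were read only where a gene reached 50 CPM and 20 counts in 1 of the 2 libraries. A gene could thus enter through the library where it was high, and the genes named were picked by their ratios. This selection favours extreme ratios, and their distance from the ratios in the *Tshz2*-zero nuclei was not tested. Of 3968 such genes 161 (4.06%) were at least 2-fold higher in *Nav1* KO than in B6 and 110 (2.77%) were at 0.5-fold or lower, with a median ratio of 0.953. Of 4023 genes for BTBR over B6 these were 239 (5.94%) and 103 (2.56%), with a median of 1.05. Both comparisons share the B6 library. The highest *Nav1* KO over B6 ratios were those of *Vtn* and *Aqp4*, at 40.5 (6.99 to 1627) and 19.2 (3.18 to 786) with 1 count each in B6, followed by *Rmnd5b* at 8.24 (2.05 to 71.9), *Pgs1* at 6.18 (1.90 to 31.8) and *Id3* at 5.72 (1.75 to 29.6). Of the 59 *Nav1* KO counts of *Vtn*, 37 lay in 1 nucleus, and of the 28 of *Aqp4*, 11 did. *Rmnd5b*, a subunit gene of a ubiquitin ligase, and *Pgs1*, of cardiolipin synthesis, stood at ratios of 1.25 and 1.02 in the *Tshz2*-zero nuclei, while *Vtn*, *Aqp4* and *Id3* were higher in *Nav1* KO there too, at 2.32, 2.26 and 2.54. The lowest ratios were those of *Nox1*, an NADPH oxidase gene, at 0.172 (0.0683 to 0.380), *Tmem87a* at 0.192, *Slc6a20b* at 0.206, *Ap1g1* at 0.240 and *Lonrf1* at 0.275. The last 3 had 20 counts each in B6, the least that the filter allows, against 6, 7 and 8 in *Nav1* KO. In the *Tshz2*-zero nuclei the first 3 were below 1 as well, at 0.450, 0.554 and 0.629, and *Ap1g1* and *Lonrf1* were at 0.967 and 0.945.

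The highest BTBR over B6 ratios were those of *Vtn* and *Rgs5*, at 62.0 (10.8 to 2482) and 35.9 (6.12 to 1450) with 1 count each in B6, and of *Pltp*, *Ly6c1* and *Igfbp7*, which had no count in B6. All of them came mainly from the BTBR nucleus described above, which held 27 of 32, 29 of 29 and 20 of 23 BTBR counts of the last 3. Among the lowest ratios, those of *Galnt1*, *Snx29* and *Mirt1* were below 1 in the *Tshz2*-zero nuclei as well. *Galnt1*, an O-glycosylation enzyme gene, was at 0.0921 (0.0356 to 0.201) in the *Tshz2* nuclei and 0.0651 in the *Tshz2*-zero nuclei, *Snx29* was at 0.204 and 0.384, and *Mirt1* at 0.262 and 0.0873. *Ank*, which codes for a pyrophosphate and citrate exporter, stood at 70.4 CPM in B6 and 18.3 CPM in BTBR, from 22 and 7 counts, a ratio of 0.260 (0.0937 to 0.629), against 1.30 (1.16 to 1.45) in the *Tshz2*-zero nuclei.

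**Figure D5:**
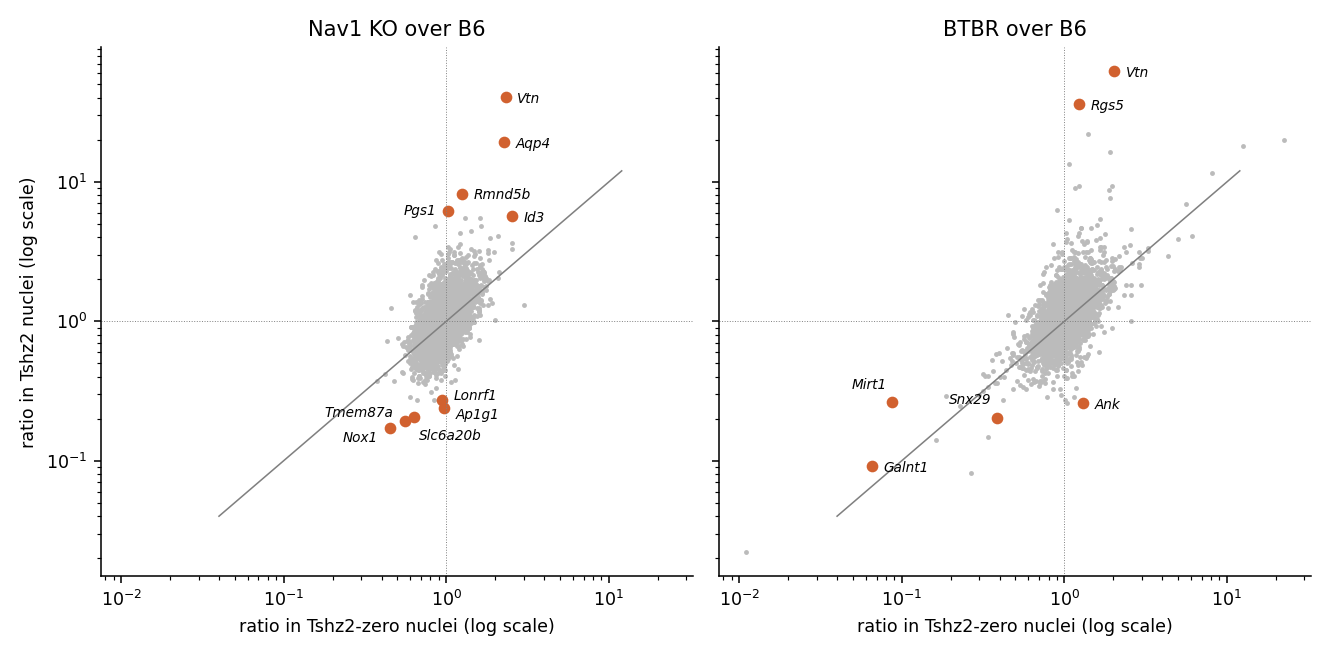
Ratio of a gene's level between libraries in the *Tshz2* nuclei (vertical axis, log scale) against the same ratio in the *Tshz2*-zero nuclei (horizontal axis, log scale), for *Nav1* KO over B6 (left) and BTBR over B6 (right); each point is a gene, coloured points are those named by their ratio, the diagonal marks equal ratios, and genes with a count of 0 are not drawn. *Galnt1* lay near the diagonal, and *Ank* lay at 0.260 in the *Tshz2* nuclei and 1.30 in the others.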

How the data were processed

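For each of 3 libraries the authors deposited 1 filtered table of UMI counts by gene and nucleus, made with Cell Ranger 6.0.0 and the mm10 reference. Values are whole counts, 0 columns lacked a sample, and the kept nuclei held 38704723 (B6), 48948184 (BTBR) and 50965774 (*Nav1* KO) counts. The nuclei and the gene lists were chosen with earlier results of these data known.

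Counts were summed per library and kind of nuclei, expressed as CPM of the whole sum, and tested with edgeR 4.0.16 in R 4.3.3 (quasi-likelihood test, TMM normalization, filter on low counts, library as a block, Benjamini-Hochberg adjustment over all genes tested, threshold 0.05), on 3 sums against 3. DESeq2 1.42.0 served in alternatives. P-values measure how the difference between the 2 kinds of nuclei varied over 3 pools that also differ in genotype and strain. Differences between the pools themselves are taken up by the library block and are not measured. The library pairs the sums because both come from 1 pool. Log2 ratios with SD are per library on CPM + 1; fitted log2 fold changes also carry the TMM factors. Levels have exact Poisson, shares exact Clopper-Pearson and ratios exact binomial intervals, at 95%. In small sums 1 count is worth 3.20 (B6), 2.61 (BTBR) and 2.20 (*Nav1* KO) CPM. Nuclei were thinned to 1000 UMIs for shares. Clusters were made with scanpy 1.11.5. Doublets were not removed. Coordinates are from GENCODE M21. Steps were tested on simulated data.

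Genes named are the 15 highest and 10 lowest fitted log2 fold changes against the *Tshz2*-zero nuclei and the 8 highest and 8 lowest in the other 2 comparisons, among called genes of 1 direction in all libraries with at least 20 counts and a name that is not a Gm, Rik, mitochondrial or ribosomal one; the 5 highest and 5 lowest ratios between libraries; and the marker lists and gene families. Some genes that this rule names are not reported here. Examples within the families were picked after their values were seen.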

Additional observations from a re-analysis of the deposited data

Results flagged for a closer look

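The BTBR over B6 ratio of *Ank* was 0.260 (0.0937 to 0.629, 7 and 22 counts) in the *Tshz2* nuclei and 1.30 (1.16 to 1.45) in the *Tshz2*-zero nuclei, and was picked out because the 2 kinds of nuclei went in opposite directions. With 1 library per strain this difference was not tested.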

How the results depend on the processing

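*Vwc2l*, *Trhr* and *Slc17a8* were called higher under each alternative run, with fitted log2 fold changes of 3.89 to 4.33, 3.74 to 4.25 and 4.99 to 6.66 when 1 library was left out. Of the values of single named genes, 450 kept their call and 57 lost it, 21 of these against the *Tshz2*-zero, 9 against the bulb-marker and 27 against the layer 6 type nuclei, and none reversed. Counts of calls moved more, and the cause was not tested. Against the *Tshz2*-zero nuclei (402 higher, 551 lower) the counts were 224 and 103 with the DESeq2 Wald test, 135 and 344 with nuclei thinned to 1000 UMIs, 1080 and 1158 with bulb-marker nuclei included, and 162 and 348 without nuclei holding UMIs of other types. Leaving out 1 library gave 176 to 306 higher and 229 to 380 lower, lowest without *Nav1* KO (262 lower without B6). Against the bulb-marker nuclei (351 and 442) the Wald test gave 18 and 113, and leaving out 1 library 50 to 353 and 141 to 463 (161 and 244 without BTBR, lowest without *Nav1* KO). Against the layer 6 type nuclei (73 and 44) the Wald test gave 5 and 6, no filter on low counts 10 lower, leaving out 1 library 2 to 43 and 0 to 30 (43 higher without B6, 21 and 7 without BTBR), and layer 6 type nuclei taken at 1 UMI of *Tle4* and of *Hs3st4* (170, 122 and 141 nuclei), chosen after seeing the data, 241 and 209. Without the library block the counts were 84 and 22, 104 and 207, and 23 and 16 in the 3 comparisons. Shares in B6, BTBR and *Nav1* KO were 1.69%, 1.83% and 2.00% at 1 *Tshz2* UMI, 0.314%, 0.406% and 0.526% at 3, 0.759%, 1.67% and 2.33% with bulb-marker nuclei included (ratios to B6 of 2.20 in BTBR and 3.07 in *Nav1* KO) and 0.219%, 0.237% and 0.377% without nuclei holding UMIs of other types, and 0.676% in *Nav1* KO without those holding vascular or glial UMIs. The *Nav1* ratio of *Nav1* KO over B6 (0.687) reversed to 1.52 with bulb-marker nuclei included and was 0.907 without nuclei holding UMIs of other types. Clustering at a resolution of 1 gave 8 groups, with 25.4% of the nuclei in the one of highest *Vwc2l*, and 53.6% at 0.3.

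A value in 319 nuclei rests on few counts for genes such as *Trhr* and *Slc17a8*, each group is 1 pool, and a UMI threshold on *Tshz2* takes fewer nuclei where depth is lower.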
